A study of Mus musculus with 14 samples.

Results

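The integrated stress response lowers general protein synthesis through phosphorylation of the translation factor eIF2 alpha and at the same time favours translation of the transcription factor ATF4, whose mRNA carries upstream reading frames. The eIF2 alpha kinases sense amino acid shortage, unfolded protein in the endoplasmic reticulum, double-stranded RNA and heme shortage. ATF4 and its partners raise genes for amino acid synthesis, uptake and tRNA charging, and the same enzymes also serve growing cells that make much protein and nucleotide.

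Described here were 10 genes of this response, taken by gene symbol from the 23427 genes of the expression table. The transcription factors were Atf4, Atf5 and Ddit3, which encodes CHOP. Trib3 encodes a pseudokinase induced by ATF4 and CHOP, Chac1 an enzyme that degrades glutathione, and Sesn2 a leucine sensor upstream of mTORC1. Asns encodes asparagine synthetase, Phgdh and Psat1 the opening steps of serine synthesis, and Shmt2 the mitochondrial enzyme that splits serine into glycine and a one-carbon unit. The genes were chosen by their known roles, with earlier results of these data known.

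On mm10, Atf4 lies at chr15:80255184-80257541, Atf5 at chr7:44812256-44816658 and Ddit3 at chr10:127290793-127296288. Trib3 lies at chr2:152337425-152344060, Chac1 on the same chromosome at chr2:119351242-119354327 and Sesn2 at chr4:132492807-132510456. Of the enzymes, Asns lies at chr6:7675171-7693182, Phgdh at chr3:98313171-98339969, Psat1 at chr19:15905123-15925059 and Shmt2 at chr10:127517123-127522444. Atf4, Ddit3 and Chac1 are on the plus strand, and values cover all exons of a gene, from 871 bases in Ddit3 to 2655 bases in Sesn2.

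Messenger RNA was sequenced from oligodendrocyte precursor cells (OPCs) of C57BL/6J mice, taken from the cortex at postnatal day 7 by immunopanning on an anti-PDGFRα antibody and grown in culture. OPCs divide and can become oligodendrocytes (OLs), the cells that make myelin. Differentiation was started by growth factor withdrawal and addition of the thyroid hormone T3. For its separate differentiation series the paper counts days from that step. For knockdown its methods have cells transfected with siRNA and harvested after a fixed incubation, and do not say what Day3 counts from. The 14 libraries formed 7 groups of 2: Day0 and 6 groups taken at Day3. These had no treatment (non-treated), a mock treatment that the labels do not detail further (mock), the negative control siRNA NC siRNA #1 or NC siRNA #2, an siRNA against Secisbp2l, also named Sbp2l (siSbp2l), or an siRNA against Pdgfra (siPdgfra). One siRNA group stood for each target gene, and all groups were cultures of C57BL/6J cells, labelled wild type apart from the knockdowns. The 2 libraries of a group were independent replicates per the study's methods, and the labels do not say which animals or pools they came from.

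Values were FPKM, which is fragments per gene scaled to exon length and library depth. Depth was 6556007 fragments in NC siRNA #2 replicate 2 and 18480052 to 31566355 in the other 13 libraries. The non-treated libraries stood apart from each other: the SD across genes of the log2 difference between replicates was 0.457 there and 0.148 to 0.1995 in the other groups. Both targets were low where they were targeted. Secisbp2l was 3.91 and 3.82 FPKM in siSbp2l and 134.7 to 255.2 FPKM in the 8 Day3 control libraries, and Pdgfra was 3.30 and 2.69 FPKM in siPdgfra and 32.4 to 72.1 FPKM in the controls. Summed FPKM of 6 OL markers was 392 to 435 at Day0, 1596 to 1780 in siSbp2l, 4094 to 4736 in siPdgfra and 4617 to 8696 in the controls. All 6 were at 1 FPKM or more in every Day3 group and 3 of 6 at Day0, where the OPC markers summed to 2041 to 2341 FPKM. In bulk RNA, fewer cells of a type and less RNA per cell cannot be told apart.

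Promoters are shown first, since a sequence to which ATF4 and its C/EBP partners bind is known from the start regions of several such genes. All 10 genes matched a RefSeq promoter window on GRCm38.p6, from 250 bases before to 50 bases after the start. The windows were searched on both strands for TGATGNAA, the core of the CEBP-ATF response element. It was found in 3 of the 10 genes, Chac1, Trib3 and Asns, and in 4.51% of 27025 genes. The 10 genes were chosen by their known roles in this response, a choice that favours such matches beforehand. The endoplasmic reticulum stress element, searched on both strands in its full form, was found in none of the 10 and in 0.137% of genes. The 3 matches are printed as 30-base windows on the strand of the gene, with the core in capitals. In Chac1 and Trib3 the capitals are the reverse complement of the core.
Chac1, chr2:119351038-119351067 (+): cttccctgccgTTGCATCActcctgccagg
Trib3, chr2:152344028-152344057 (-): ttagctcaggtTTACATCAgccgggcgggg
Asns, chr6:7693214-7693243 (-): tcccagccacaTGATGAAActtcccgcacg
Counted from the first transcribed base as 0, the capitals begin at -193 in Chac1, at 14 in Trib3 and at -23 in Asns. A match describes letters only, and its absence from a window says nothing of sites elsewhere.

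The levels of the 10 genes spanned a wide range. At Day0 Psat1 stood at 242.1 and 241.5 FPKM and Atf4 at 102.7 and 95.4 FPKM, whereas Trib3 stood at 0.848 and 0.715 FPKM. Trib3 was low throughout: its values came from about 5 fragments in NC siRNA #2 replicate 2 to about 136 in siPdgfra replicate 1. Chac1 rested on about 18 to 346 fragments per library. The Day0 group held the highest mean for 5 of the 10 genes (Asns, Atf5, Phgdh, Psat1 and Shmt2), siPdgfra for 3 (Atf4, Chac1 and Trib3) and siSbp2l for 2 (Ddit3 and Sesn2).

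**Figure D1:**
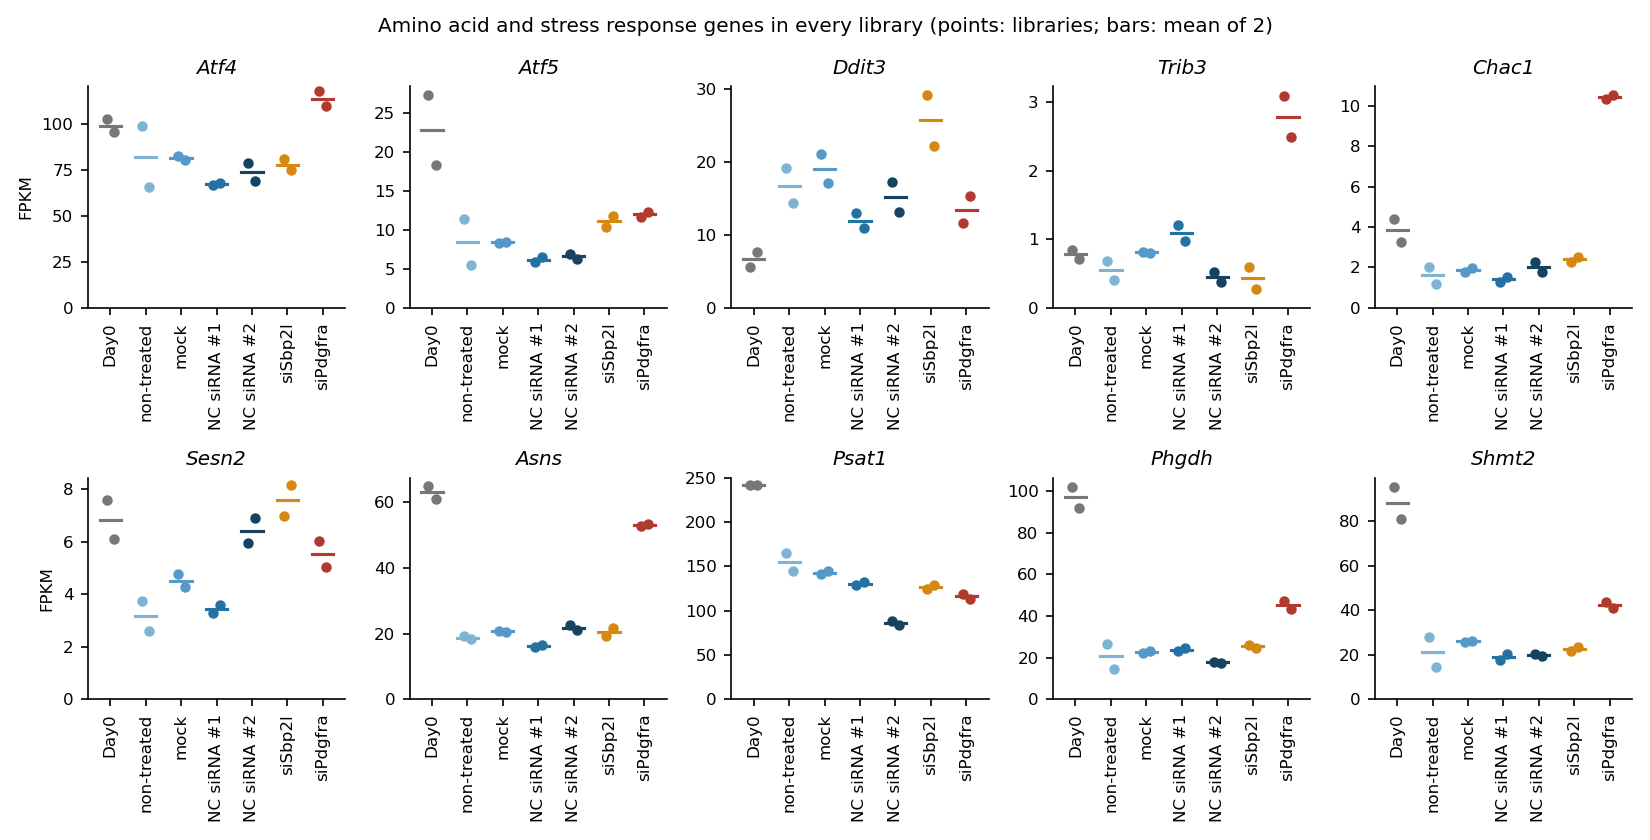
FPKM (vertical axis, from 0, one scale per gene) of the 10 genes in each of the 14 libraries, by group; points are libraries and bars are means of 2. Chac1 lay at 10.3 and 10.5 FPKM in siPdgfra against 1.19 to 2.27 FPKM in the controls, while Asns, Phgdh and Shmt2 were high at Day0, low in the controls and siSbp2l, and between or near Day0 in siPdgfra.

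The first comparison asked how the response genes differed between Day0 precursors and Day3 cells, without siRNA. Of the 10 genes, 7 were lower in Day3 non-treated cells than at Day0 at an adjusted p under 0.05 (limma on log2 of FPKM + 1, all 14 libraries in the fit, Benjamini-Hochberg over 11874 genes), and 1 was higher. Over all genes tested, 38.6% were lower and 28.4% higher. Called changes, which also had to reach 2-fold, numbered 5 of 10 beside 26.6% of all genes. The median log2 difference was -0.91 over the 10 genes and -0.12 over all.

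The first serine enzyme and the mitochondrial one-carbon enzyme fell most. Phgdh was 102 and 92.0 FPKM at Day0 and 26.6 and 14.6 FPKM in non-treated cells, a log2 difference of -2.24 ± 0.20 (SE, limma adjusted p = 1.72e-06). Shmt2 went from 95.5 and 80.8 FPKM to 27.8 and 14.3 FPKM, a log2 difference of -2.08 ± 0.22 (limma adjusted p = 8.14e-06). For both genes the lower Day0 library was more than 2-fold above the higher non-treated one, although the non-treated replicates differed by 0.82 and 0.91 log2 units. Psat1, between these enzymes in the pathway, moved less: its 242.1 and 241.5 FPKM became 164.4 and 144.3 FPKM, a log2 difference of -0.65 ± 0.09 (limma adjusted p = 5.99e-05).

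Asns fell from 65.0 and 61.1 FPKM to 19.1 and 18.3 FPKM, a log2 difference of -1.70 ± 0.09 (limma adjusted p = 1.42e-08). Atf5, a relative of Atf4 that also has upstream reading frames, was 27.4 and 18.3 FPKM at Day0 and 11.4 and 5.54 FPKM in non-treated cells, a log2 difference of -1.38 ± 0.25 (limma adjusted p = 0.000515). Chac1 and Sesn2 fell as well, with log2 differences of -0.90 ± 0.16 and -0.92 ± 0.15 on the scale with 1 FPKM added, while the ratios of mean FPKM at Day0 to non-treated were 2.38 and 2.16. In every one of these genes both non-treated libraries lay below both Day0 libraries, but the share of all genes for which this held was not counted.

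Ddit3 went the other way. It was 5.59 and 7.65 FPKM at Day0 and 19.2 and 14.3 FPKM in non-treated cells, a log2 difference of 1.22 ± 0.21 (limma adjusted p = 0.000385). The groups did not overlap. Ddit3 overlaps Mars on the opposite strand, and although the libraries were made with a stranded kit, whether the counting used the strand is not given in the sources used here. The same holds for Atf5 with Nup62 and for Shmt2 with Ndufa4l2.

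Atf4 mRNA itself did not pass: 102.7 and 95.4 FPKM at Day0 stood against 98.8 and 65.5 FPKM in non-treated cells, and the 95% interval of the log2 difference ran from -0.64 to 0.05 (limma adjusted p = 0.117). That value turned on the non-treated pair. Without non-treated replicate 1 the log2 difference was -0.59 (limma adjusted p = 0.000136), the 1 of 24 alternatives that passed. In the NC siRNA #1 and NC siRNA #2 groups Atf4 was lower than at Day0 (log2 differences -0.55 ± 0.16 and -0.42 ± 0.16). Neither group passed against non-treated cells directly (limma adjusted p = 0.279 and 0.619). Mock cells gave 82.7 and 80.2 FPKM and a log2 difference of -0.28 ± 0.16 from Day0 (limma adjusted p = 0.138). Trib3, at 0.680 and 0.411 FPKM in non-treated cells, did not pass either (log2 difference -0.21 ± 0.14), and with mock in place of non-treated it was 0.02. Summed FPKM of 4 markers of dividing cells moved with this comparison, from 546 to 622 at Day0 to 28.5 to 33.9 in non-treated cells, and its part in the result was not tested.

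**Figure D2:**
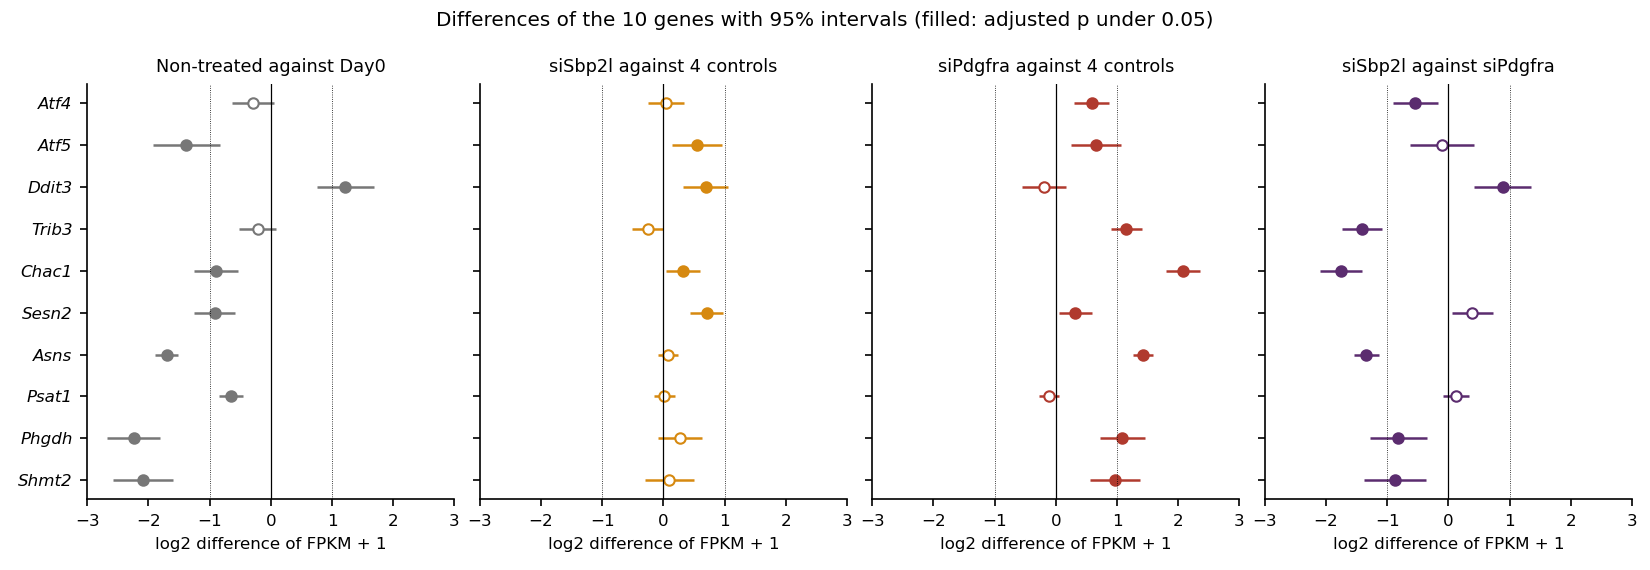
Log2 differences of FPKM + 1 (horizontal axis) with 95% intervals for the 10 genes in 4 comparisons; filled points have an adjusted p under 0.05 and dotted lines mark 2-fold. Non-treated cells lie below Day0 for 7 genes and above it for Ddit3, and siPdgfra lies above the controls for 8 genes, Trib3 included, with Chac1 at 2.08 and Asns at 1.42.

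The second comparison set siPdgfra against the mean of the 4 Day3 controls, in a limma fit of the 12 Day3 libraries over 11650 genes. PDGFRα, the receptor for platelet-derived growth factor, carries the main mitogenic signal of OPCs. Trib3 met the filter on low values only through siPdgfra, so it is counted apart. Of the other 9 genes, 7 were higher at an adjusted p under 0.05 and 0 lower, beside 32.4% higher and 23.0% lower over all genes. Called changes numbered 3 of these 9, beside 7.99% of all genes. The median log2 difference was 0.66 over the 9 genes and 0.09 over all. Both siPdgfra libraries lay above all 8 control libraries for 6 of the 9 genes, beside 26.5% of all genes.

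Chac1 differed most. It was 10.3 and 10.5 FPKM in siPdgfra and between 1.19 and 2.27 FPKM in the controls, a ratio of means of 6.02 and a log2 difference of 2.08 ± 0.12 (limma adjusted p = 9.2e-07). These values also exceeded the 4.41 and 3.26 FPKM of Day0.

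Trib3 was 3.10 and 2.49 FPKM in siPdgfra and between 0.372 and 1.21 FPKM in the controls, a ratio of means of 3.86 and a log2 difference of 1.15 ± 0.11. It reached 1 FPKM in both siPdgfra libraries and in only 1 other, so a filter of 1 FPKM in 2 libraries kept it through the group where it was high. With no such filter, over every gene above 0, the limma adjusted p of Trib3 was 9.7e-05. At such levels the added 1 FPKM shrinks the log2 difference, which was 1.88 with a pseudocount of 0.1 and 0.45 with a pseudocount of 5.

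Asns reached 52.8 and 53.3 FPKM in siPdgfra, where the controls ran from 15.8 to 22.6 FPKM, a log2 difference of 1.42 ± 0.07 (limma adjusted p = 3.33e-07). Among the 9 genes counted without Trib3, Chac1 and Asns had the highest log2 differences against the mean of the controls. This order is a description with no test. Trib3 was kept by the filter through siPdgfra, so its place is not read. That place also depended on the scale and the control. With a pseudocount of 5 Trib3 (0.45) lay below Phgdh (0.96), and against NC siRNA #1 alone (0.86) below Shmt2 (1.11) and Phgdh (0.90). Whether the promoter core goes with these differences was not tested.

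Phgdh was 47.3 and 43.4 FPKM in siPdgfra and 14.6 to 26.6 FPKM in the controls, a log2 difference of 1.09 ± 0.16 (limma adjusted p = 0.000351). Shmt2 was 43.6 and 40.8 FPKM against 14.3 to 27.8 FPKM, a log2 difference of 0.97 ± 0.18 (limma adjusted p = 0.00135), just under 2-fold. Psat1, which lies between them in the pathway, stood at 118.4 and 113.4 FPKM within a control range of 84.0 to 164.4 FPKM, and the interval of its log2 difference ran from -0.28 to 0.06 (limma adjusted p = 0.233). Under median-ratio and upper-quartile scaling the Psat1 difference was -0.22 and -0.21, with limma adjusted p = 0.0229 and 0.0311.

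Atf4 mRNA was higher as well, at 117.9 and 109.5 FPKM against 65.5 to 98.8 FPKM in the controls, with a log2 difference of 0.58 ± 0.13 (limma adjusted p = 0.0037). Its 2 siPdgfra libraries were the highest of all 14. Atf5 was 11.7 and 12.3 FPKM against 5.54 to 11.4 FPKM, a log2 difference of 0.66 ± 0.18 (limma adjusted p = 0.0122), which was lost without siPdgfra replicate 1 (limma adjusted p = 0.0682) or replicate 2 (limma adjusted p = 0.0949).

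The 2 other genes gave less. Ddit3 was 11.6 and 15.3 FPKM in siPdgfra, within the control range of 10.96 to 21.0 FPKM, and the interval of its log2 difference ran from -0.56 to 0.17. Sesn2 was 6.04 and 5.03 FPKM within a control range of 2.61 to 6.89 FPKM. Its log2 difference of 0.32 ± 0.12 had limma adjusted p = 0.0453, passed in 11 of 28 alternatives and was -0.18 against NC siRNA #2 alone. Leaving out either siPdgfra library, either siSbp2l, mock or NC siRNA #1 library, or NC siRNA #2 replicate 1 ended the Sesn2 call, with the highest limma adjusted p of 0.338 without siPdgfra replicate 1.

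Each Day3 control was also used alone. Chac1 was called against all 4, with log2 differences of 1.93 to 2.24, and so was Asns, with 1.25 to 1.66. Over all genes 1.77% were called higher against all 4. Trib3 was called against 3 of the 4 and was 0.86 above NC siRNA #1. Phgdh was called against 2 of the 4 and Shmt2 against 3 of the 4, with log2 differences of 0.90 to 1.31 and 0.68 to 1.11, and Atf4 passed against all 4 at 0.48 to 0.75. For Sesn2, Psat1 and Ddit3 the direction depended on the control.

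**Figure D3:**
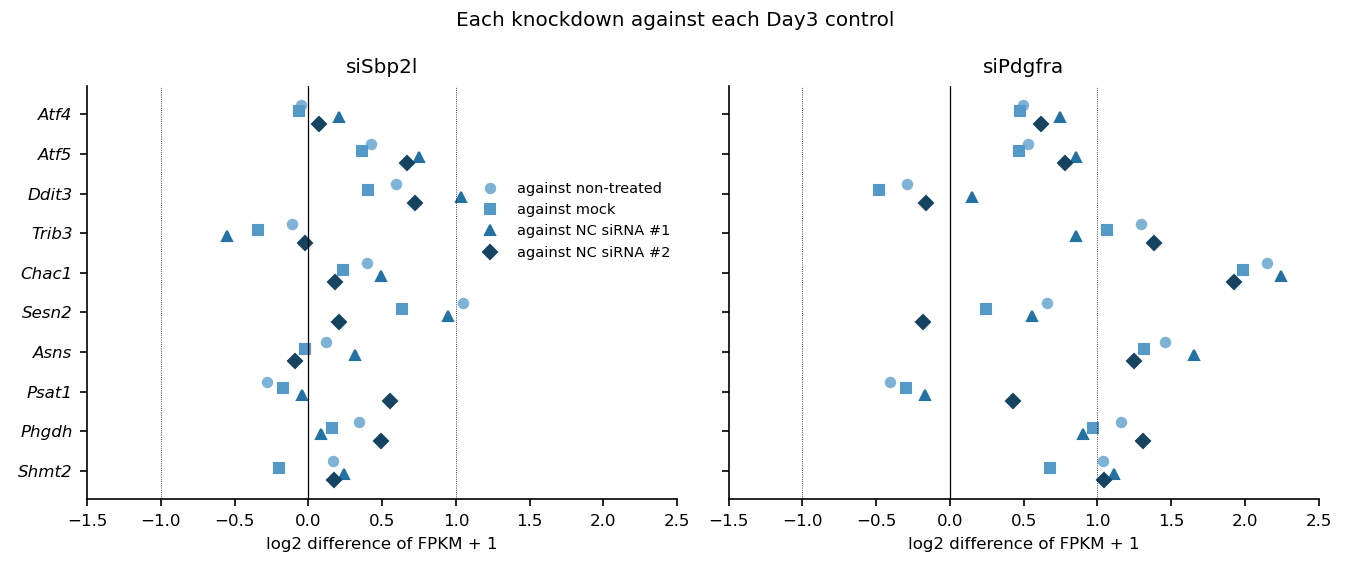
Log2 differences of FPKM + 1 (horizontal axis) of each knockdown from each Day3 control alone, for the 10 genes; marker shapes are controls and dotted lines mark 2-fold. In siPdgfra the 4 points of Chac1 lie at 1.93 to 2.24 and those of Asns at 1.25 to 1.66, and in siSbp2l those of Sesn2 spread from 0.21 to 1.05.

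Against Day0, siPdgfra cells differed in both directions. Of the 9 genes without Trib3 7 passed, beside 67.8% of all genes. Chac1, Ddit3 and Trib3 were above Day0, with log2 differences of 1.25 ± 0.16, 0.92 ± 0.21 and 1.09 ± 0.14. Phgdh (-1.08 ± 0.20), Shmt2 (-1.04 ± 0.22) and Psat1 (-1.06 ± 0.09) were below it. Asns was lower by 0.24 (log2 difference -0.24 ± 0.09, limma adjusted p = 0.0269), so that it was nearer to Day0 than to the controls. Atf4 (0.20, interval -0.15 to 0.54) and Sesn2 (-0.26, interval -0.60 to 0.08) did not pass, and Atf5 was below Day0 (-0.85 ± 0.25). Dividing-cell markers summed to 25.5 to 28.4 FPKM in siPdgfra and 3.67 to 4.08 FPKM in siSbp2l. Among the controls they summed to 28.5 to 33.9 FPKM in non-treated cells and 31.6 to 33.75 FPKM in mock cells. The sums were 3.01 to 4.29 FPKM with NC siRNA #1 and 8.76 to 9.48 FPKM with NC siRNA #2. All were far from the 546 to 622 FPKM of Day0, and their part in the result was not tested.

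The third comparison set siSbp2l against the mean of the same 4 controls. SECISBP2L is a relative of the protein that binds the selenocysteine insertion element of selenoprotein mRNAs. Of the 10 genes 4 were higher at an adjusted p under 0.05 and 0 lower, beside 35.5% higher and 17.9% lower over all genes, so the share of the 10 lay near that of all genes. No gene reached 2-fold (limma, 0 of 10 called, 5 at an unadjusted p under 0.05), beside 7.19% called over all genes. The median log2 difference was 0.18 over the 10 genes and 0.15 over all, and median-ratio scaling, which brought the latter to 0.00, turned Atf4, Asns, Psat1 and Shmt2 from slightly above to slightly below the controls. Both siSbp2l libraries lay above all 8 control libraries for 2 of the 10 genes, beside 30.8% of all genes.

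These 2 were Sesn2 and Ddit3. Sesn2 was 6.97 and 8.16 FPKM in siSbp2l and 2.61 to 6.89 FPKM in the controls, a log2 difference of 0.71 ± 0.12 (limma adjusted p = 0.000778). The top of that range was NC siRNA #2, at 5.93 and 6.89 FPKM, against which Sesn2 differed by 0.21 (limma adjusted p = 0.299). Ddit3 was 29.2 and 22.2 FPKM, its highest values in the data, and 10.96 to 21.0 FPKM in the controls, a log2 difference of 0.69 ± 0.16 (limma adjusted p = 0.00533). Against mock alone it was 0.41 (limma adjusted p = 0.138), and without siSbp2l replicate 1 it was 0.50 (limma adjusted p = 0.102).

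Atf5 and Chac1 passed with less room. Atf5 was 10.3 and 11.9 FPKM, overlapping non-treated replicate 1 at 11.4 FPKM, with a log2 difference of 0.55 ± 0.18 (limma adjusted p = 0.0283). Chac1 was 2.26 and 2.52 FPKM, overlapping NC siRNA #2 replicate 1 at 2.27 FPKM, with a log2 difference of 0.32 ± 0.12 (limma adjusted p = 0.0476). Under median-ratio scaling the adjusted p of limma was 0.0699 for Atf5 and 0.161 for Chac1, and without siSbp2l replicate 2 it was 0.196 and 0.26. Without siSbp2l replicate 1 it was 0.0883 and 0.126. The Atf5 call also ended without NC siRNA #1 replicate 1 (limma adjusted p = 0.0511) or NC siRNA #2 replicate 2 (limma adjusted p = 0.0521), and that of Chac1 passed in 10 of 28 alternatives.

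The other 6 genes did not pass against the mean of the 4 controls. Intervals of the log2 difference ran from -0.08 to 0.24 for Asns, from -0.15 to 0.18 for Psat1 and from -0.25 to 0.33 for Atf4. They ran from -0.31 to 0.50 for Shmt2 and from -0.09 to 0.64 for Phgdh, and a 2-fold rise lay outside all 5. The non-treated pair mattered here, both for the mean of the controls and for the spread, which all Day3 groups share in the fit. Without its replicate 1 the log2 difference was 0.37 for Phgdh and 0.21 for Shmt2, and without its replicate 2 it was 0.17 for Phgdh. Against single controls Psat1 passed in both directions, at -0.28 from non-treated (limma adjusted p = 0.0331) and 0.55 from NC siRNA #2 (limma adjusted p = 0.00122), and Asns passed at 0.32 from NC siRNA #1 (limma adjusted p = 0.0172). Trib3, at 0.601 and 0.270 FPKM, was the only member of the 10 with a negative value, -0.26 ± 0.11 (limma adjusted p = 0.0846), and passed in 6 of 26 alternatives.

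The knockdowns were then compared directly. With Trib3 again counted apart, 5 of 9 genes were lower in siSbp2l than in siPdgfra and 1 was higher at an adjusted p under 0.05, beside 23.4% lower and 28.5% higher over all genes, and 2 of 9 were called, beside 13.7%. Chac1 differed by -1.75 ± 0.16 on the log2 scale (limma adjusted p = 1.18e-05), Trib3 by -1.41 ± 0.15 (limma adjusted p = 0.00012 with no filter on low values) and Asns by -1.34 ± 0.09 (limma adjusted p = 2.13e-06). Shmt2, Phgdh and Atf4 were lower by less than 2-fold, with log2 differences of -0.87 ± 0.23, -0.82 ± 0.21 and -0.54 ± 0.16. Ddit3 was higher in siSbp2l by 0.89 ± 0.21 (limma adjusted p = 0.00496). Leaving out 1 library ended 4 of these calls: that of Atf4 without any 1 of the 4 knockdown libraries (limma adjusted p up to 0.104), those of Ddit3 (0.052) and Shmt2 (0.0582) without siSbp2l replicate 1, and those of Ddit3 (0.0521), Shmt2 (0.0566) and Phgdh (0.0535) without siPdgfra replicate 1. Sesn2 (0.39, interval 0.05 to 0.73), Psat1 (0.13, interval -0.09 to 0.34) and Atf5 (-0.11, interval -0.63 to 0.41) did not pass.

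The control groups were not alike for these genes. Psat1 was 87.7 and 84.0 FPKM with NC siRNA #2 and 141.1 and 144.1 FPKM in mock cells, a log2 difference of -0.73 ± 0.10 (limma adjusted p = 0.000933), the 1 gene of 10 that passed, beside 14.6% of all genes. NC siRNA #1 against mock also had 1 of 10, beside 20.8%: Asns at 15.8 and 16.5 FPKM against 20.9 and 20.6 FPKM (log2 difference -0.34 ± 0.09, limma adjusted p = 0.0254), a call lost without any 1 of these 4 libraries (limma adjusted p = 0.103 to 0.168). Between the 2 negative control siRNAs 4 of 10 passed, beside 21.0%. NC siRNA #2 was above NC siRNA #1 for Sesn2 (0.74 ± 0.15) and Asns (0.41 ± 0.09) and below it for Psat1 (-0.60 ± 0.10) and Trib3 (-0.53 ± 0.15). No gene of the 10 reached 2-fold in these limma comparisons, whose counts at an unadjusted p under 0.05 were 2, 2 and 4. Between the 2 siRNAs the calls of Trib3, Sesn2 and Asns each ended without NC siRNA #1 replicate 1 (limma adjusted p = 0.183, 0.0619 and 0.095). Trib3 was also lost without any other of the 4 libraries (limma adjusted p = 0.0657 to 0.17), Sesn2 without NC siRNA #2 replicate 2 (limma adjusted p = 0.0654), and Asns without NC siRNA #1 replicate 2 (limma adjusted p = 0.0542) or NC siRNA #2 replicate 1 (limma adjusted p = 0.0919).

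In the order of group means, neighbouring groups often overlapped. For Chac1, siPdgfra stood above Day0 and Day0 above siSbp2l, and the ranges of siSbp2l and the 4 controls overlapped from each group to the next. For Ddit3 only the ends stood clear, siSbp2l above mock and NC siRNA #1 above Day0. Phgdh and Shmt2 both had Day0 highest and siPdgfra next, each clear of its neighbours. For Atf4, siPdgfra stood clear at the top, and NC siRNA #1, lowest by mean, was apart from its neighbour NC siRNA #2 but not from non-treated, whose replicate 2 was lower still at 65.5 FPKM. Asns had 5 of 6 neighbouring pairs apart and Sesn2 had 2 of 6. The like shares over all genes were not counted, so none of the separations in this paragraph is read as particular to these genes.

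Likeness was measured as Pearson's r of log2 of FPKM + 1 over the 14 libraries, which share groups and depth, and is given with no test. Phgdh and Shmt2 were the most alike of the 45 pairs (r = 0.976), and Asns ran with Shmt2 (r = 0.918) and Phgdh (r = 0.895). Atf4 ran most with Chac1 (r = 0.866) and Asns (r = 0.815), and Trib3 with Chac1 (r = 0.788). Ddit3 was negative with all 9 others, from -0.04 with Sesn2 to -0.68 with Phgdh. Outside the 10, the gene most like Asns was Slc7a1 (r = 0.983), which encodes a cationic amino acid transporter, and that most like Phgdh was Atp5o (r = 0.990), a subunit of ATP synthase. The large neutral amino acid transporter gene Slc7a5 came after Ube2s and BC048355 for Shmt2 (r = 0.977). The closest were Rps16 for Atf5 (r = 0.983), Arhgdig for Chac1 (r = 0.974), Cmpk2 for Trib3 (r = 0.970), Mgat4b for Sesn2 (r = 0.968), C630043F03Rik for Psat1 (r = 0.965), Psmd8 for Atf4 (r = 0.948) and Ddrgk1 for Ddit3 (r = 0.945).

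Other genes of the response were taken as 8 lists, none of which holds any of the 10. Their counts stand against the shares over all genes given above: 38.6% lower and 28.4% higher in non-treated cells against Day0, 32.4% higher and 23.0% lower in siPdgfra, and 35.5% higher and 17.9% lower in siSbp2l. In siSbp2l the counts of several lists turned with the scaling, so those under median-ratio scaling are given beside them. The cytosolic aminoacyl-tRNA synthetases, which charge tRNAs with amino acids, were tested for 20 genes. In non-treated cells 17 of 20 were lower than at Day0 and 0 higher (median log2 difference -0.75), and in siPdgfra 14 of 20 were higher than the controls and 0 lower (median 0.39). In siSbp2l 5 were higher and 3 lower (median 0.11), and under median-ratio scaling 3 were higher and 5 lower (median -0.054). In siPdgfra Rars reached 95.5 and 111.4 FPKM against 38.9 to 47.2 FPKM in the controls, a log2 difference of 1.19 ± 0.08, and Iars had a difference of 1.02 ± 0.08. In siSbp2l Gars fell to 34.3 and 31.6 FPKM against 57.5 to 67.5 FPKM in the controls, a log2 difference of -0.91 ± 0.08, while Kars rose by 0.62 ± 0.08. Under the 2 other scalings 12 and 13 of 20 were higher in siPdgfra and 15 of 20 lower in non-treated cells, with 0 the other way. In the direct contrast 9 of 20 were lower in siSbp2l than in siPdgfra and 1 higher.

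Of the amino acid transporters, 7 of 10 were lower in non-treated cells than at Day0 and 0 higher, with log2 differences of -3.36 ± 0.15 for Slc7a5 and -2.86 ± 0.09 for Slc7a1. In siPdgfra 4 of 9 were higher and 1 lower, a share near that of all genes. Slc7a1 was 31.9 and 29.8 FPKM there against 4.63 to 6.99 FPKM in the controls, a log2 difference of 2.27 ± 0.08 (limma adjusted p = 3.87e-08), and Slc7a5 differed by 1.49 ± 0.12. In siSbp2l 3 of 9 were higher and 2 lower, also near the share of all genes, and 1 and 3 under median-ratio scaling. Slc1a4, which carries alanine, serine and cysteine, rose by 1.05 ± 0.11 and Slc6a9, a glycine transporter, changed by -1.02 ± 0.14.

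Of the other amino acid and one-carbon enzymes, 10 of 18 were lower in non-treated cells than at Day0 and 4 higher. The cytosolic serine hydroxymethyltransferase Shmt1 changed by -3.27 ± 0.11, and the mitochondrial one-carbon enzyme Mthfd2 by -2.80 ± 0.13. In siPdgfra 10 of 17 were higher than the controls and 2 lower (median log2 difference 0.51). Bcat1, a branched-chain aminotransferase, was 22.9 and 23.4 FPKM there against 2.999 to 6.90 FPKM (log2 difference 2.08 ± 0.08), and Mthfd2 was 18.6 and 20.1 FPKM against 3.26 to 6.33 FPKM (1.80 ± 0.11). In siSbp2l 6 were higher and 3 lower, which became 3 higher and 6 lower under median-ratio and upper-quartile scaling. Mthfd1l, the mitochondrial formate-producing enzyme, was lower there at 5.13 and 4.72 FPKM against 11.5 to 19.2 FPKM (-1.35 ± 0.08), and Glul, glutamine synthetase, was higher in both knockdowns (0.98 ± 0.08 in siSbp2l and 0.97 ± 0.08 in siPdgfra).

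Chaperones and folding enzymes of the endoplasmic reticulum did not go with the enzymes in siPdgfra. There 10 of 19 were lower than the controls and 2 higher (median log2 difference -0.32). The 2 higher ones were Edem1 (0.62 ± 0.11) and Herpud1 (0.38 ± 0.09). Sel1l, of the degradation machinery, was 15.9 and 15.8 FPKM against 29.5 to 44.1 FPKM (-1.20 ± 0.07), and Dnajc3, which encodes an inhibitor of the eIF2 alpha kinase PERK, was 11.95 and 13.9 FPKM against 27.4 to 37.4 FPKM (-1.15 ± 0.11). In siSbp2l 3 of 19 were higher and 2 lower (median -0.08), against 2 and 7 under median-ratio scaling (median -0.25). In the direct contrast 10 of 19 were higher in siSbp2l than in siPdgfra and 3 lower, and in non-treated cells against Day0 4 were higher and 9 lower, which became 6 and 6 under both other scalings.

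The kinases and phosphatase subunits of eIF2 alpha had 4 of 8 higher and 2 lower in siPdgfra. Eif2ak4, the kinase GCN2 that senses uncharged tRNA, was 10.4 and 11.5 FPKM there against 4.47 to 6.33 FPKM in the controls (log2 difference 0.93 ± 0.11), and Eif2ak2, the kinase PKR that binds double-stranded RNA, differed by 0.88 ± 0.09. In siSbp2l 4 of 8 were higher and 0 lower, or 3 and 2 under median-ratio scaling, with Ppp1r15a, the phosphatase subunit GADD34, at 0.59 ± 0.09. In non-treated cells 3 were higher and 3 lower than at Day0. Partner and stress transcription factors had 1 of 9 higher and 3 lower in siPdgfra, 4 higher and 2 lower in siSbp2l (4 and 4 under median-ratio scaling) and 4 higher and 1 lower in non-treated cells, where Atf3, like Ddit3, rose (1.54 ± 0.15). In siSbp2l Atf6, a sensor of unfolded protein, was lower (-1.12 ± 0.11). Other sensors went the other way there: Ern1, of the endoplasmic reticulum list, was higher (0.78 ± 0.08), as was Eif2ak3, which encodes PERK (0.38 ± 0.08).

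Of the other stress effectors, 3 of 12 were higher and 2 lower in siPdgfra. Ero1l (1.12 ± 0.16) and Bbc3 (0.69 ± 0.20) were among the higher ones. Sesn3, a relative of Sesn2, was lower (-1.36 ± 0.13) as was Sesn1 (-0.47 ± 0.08). In siSbp2l 4 were higher and 1 lower (4 and 3 under median-ratio scaling), and 6 were higher and 4 lower in non-treated cells against Day0. Gadd45a and Bbc3, both induced by cell stress, rose by 2.30 ± 0.16 and 2.28 ± 0.24 in the last comparison, and Eif4ebp1, a translation inhibitor controlled by mTORC1, changed by -2.62 ± 0.24. Of 12 interferon and double-stranded RNA response genes only 2 passed the filter at Day3, and 1 of these, Ddx58, was higher in siPdgfra (0.24 ± 0.08, lost under both other scalings) and in siSbp2l (0.32 ± 0.08).

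**Figure D4:**
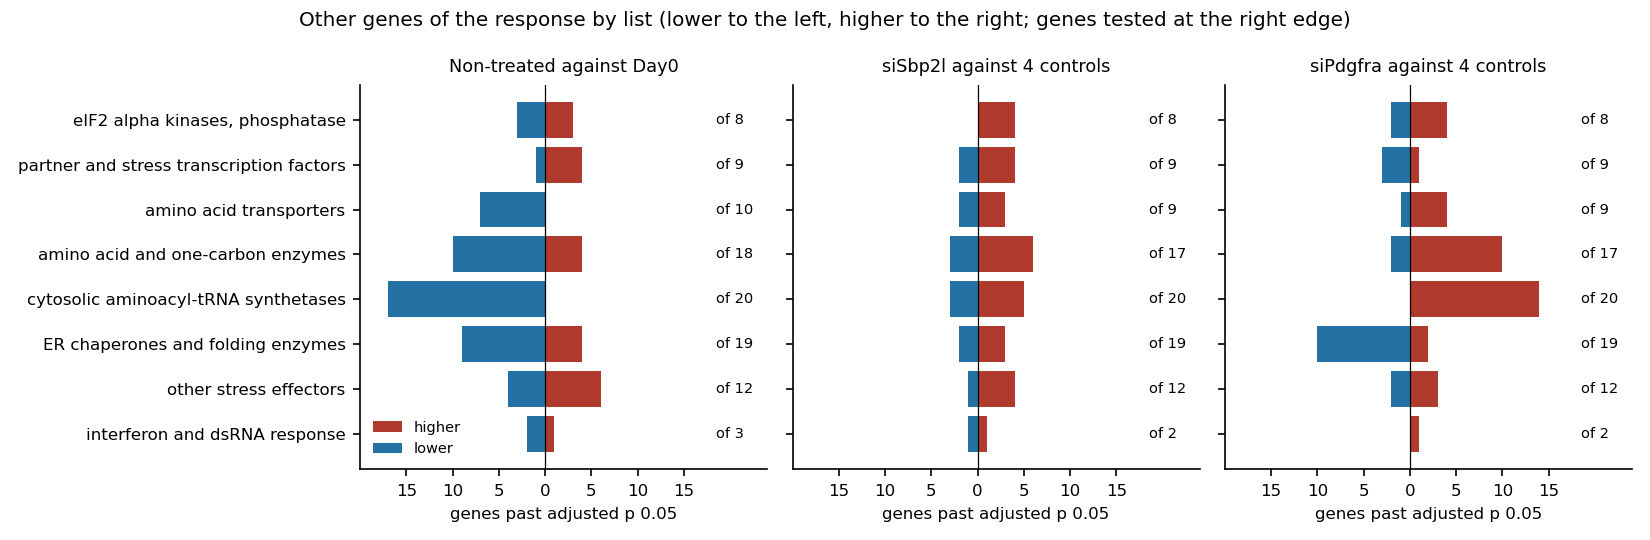
Number of genes (horizontal axis) of 8 lists past an adjusted p of 0.05, lower to the left and higher to the right, in 3 comparisons, with the number tested at the right edge of each panel. Aminoacyl-tRNA synthetases stand at 17 of 20 lower in non-treated cells against Day0 and at 14 of 20 higher in siPdgfra, where 10 of 19 chaperones and folding enzymes stand on the lower side.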

How the data were processed

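RNA-seq libraries of 14 cultures were used. The authors processed paired-end reads in OmicSoft ArrayStudio on the mm10 refGene gene model (aligner and counting settings are not given in the sources used here) and deposited FPKM values, although the table is presented as counts. A second deposited table gave exon lengths and positions (other units). Its columns of the authors' DESeq2 comparisons (fold changes, p-values) were not used. The 2 non-treated libraries are named in the table by day alone and were matched by name, and 1 misspelled column was matched to siSbp2l.

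Groups came from the labels. Genes with at least 1 FPKM in 2 libraries were tested on log2(FPKM + 1) with limma 3.58.1 (R 4.3.3, intensity trend, robust), so fold changes of low genes are understated. The 12 Day3 libraries were fitted together and all 14 for contrasts with Day0. Called means an adjusted p under 0.05 and 2-fold. The fit was also run on simulated libraries. These had no pair standing apart like the non-treated one and no differences between control groups, so the run does not cover those features. Depth came from the steps between low FPKM values (89.4 to 92.8% whole within 0.1 for genes with 1 transcript), so fragment numbers are estimates that cover counting error only. P-values measure the spread between 2 libraries per group, pooled over all groups of a fit and moderated across genes. The non-treated pair, which stood apart, so adds to that spread in every comparison, also in those without it.

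The members and lists were chosen with earlier results of these data known. Named were all 10 members, both targets, up to 2 genes per list and direction with the largest change, and the genes most like a member. Markers of OPCs, OLs, astrocytes, neurons, microglia, endothelial and dividing cells were summed. Tables were made with Python 3.11.15 and pandas 2.3.3, plots with matplotlib 3.10.9. Promoters were RefSeq windows.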

Additional observations from a re-analysis of the deposited data

Results flagged for a closer look

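In 3 of the 10 genes the effects of the 2 knockdowns under the same controls differed by at least 2-fold in the limma contrast of siSbp2l with siPdgfra. With Trib3 counted apart it was 2 of 9 genes, beside 13.7% of all genes. The log2 differences of the 3 genes were -1.75 for Chac1, -1.41 for Trib3 and -1.34 for Asns. These are the values given above. Chac1 and Asns passed under every one of their 24 alternatives. Trib3 met the filter only because it was high in siPdgfra, and its difference was -0.52 with a pseudocount of 5. Sums of 5 neuron markers were 199.5 to 200.6 FPKM in siSbp2l, 236 to 240 FPKM in siPdgfra and 47.8 to 276 FPKM in the controls. Nearly all of these sums was the tubulin gene Tubb3, at 193 and 194 FPKM in siSbp2l and 235 and 230 FPKM in siPdgfra. In the same order, sums of 5 astrocyte markers were 98.2 to 105 FPKM, 35.1 to 35.7 FPKM and 78.3 to 141 FPKM. Sums of 4 dividing-cell markers were 3.67 to 4.08 FPKM in siSbp2l and 25.5 to 28.4 FPKM in siPdgfra. In the controls they ran from 3.01 to 33.9 FPKM, split by group as given above. The part of these markers in the differences was not tested. All 4 endothelial markers were under 1 FPKM in every group, and the 5 microglial markers summed to at most 9.46 FPKM, nearly all of it P2ry12.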

How the results depend on the processing

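With the 2-fold requirement dropped, the counts of members, with Trib3 included throughout, were 8 for non-treated against Day0, 4 for siSbp2l, 8 for siPdgfra, 7 for siSbp2l against siPdgfra, and 1, 1 and 4 for NC siRNA #1 against mock, NC siRNA #2 against mock and NC siRNA #2 against NC siRNA #1. Over all genes 7952 of 11874 passed for non-treated against Day0. Of 11650 genes 6226 passed for siSbp2l, 6454 for siPdgfra and 6056 for siSbp2l against siPdgfra. For the control comparisons, in the same order, the shares of all genes were 20.8%, 14.6% and 21.0%. In siPdgfra 2 of 10 were called with a pseudocount of 5, and between the NC siRNAs 1 with a pseudocount of 0.1. Over all genes the calls with a pseudocount of 5 were 1915 in place of 3157 for non-treated against Day0, 392 in place of 838 for siSbp2l, 382 in place of 931 for siPdgfra and 694 in place of 1592 for siSbp2l against siPdgfra, and with 0.1 they were 1376 for siSbp2l and 1527 for siPdgfra. In siSbp2l 1 was called against non-treated alone and 1 against NC siRNA #1 alone, beside 1234 and 1149 of 11650 genes. Leaving out 1 library moved some log2 differences across 2-fold. For non-treated against Day0 these were Atf5 (-1.84 to -0.92), Chac1 (-1.13 to -0.66) and Sesn2 (-1.11 to -0.72). In siPdgfra they were Phgdh (0.98 to 1.19) and Shmt2 (0.85 to 1.08), and in siSbp2l against siPdgfra Ddit3 (0.70 to 1.08).

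Some directions turned. In siSbp2l, median-ratio and upper-quartile scaling gave -0.13 and -0.087 for Atf4, -0.084 and -0.045 for Asns, -0.15 and -0.11 for Psat1 and -0.067 and -0.028 for Shmt2. Against non-treated alone Atf4 was -0.049 and Psat1 -0.28, against mock alone Atf4 was -0.066, Asns -0.025, Psat1 -0.17 and Shmt2 -0.20, against NC siRNA #1 alone Psat1 was -0.042, and against NC siRNA #2 alone Asns was -0.093. Without 1 library, Atf4 ran from -0.031 to 0.12, Psat1 from -0.0084 to 0.038 and Shmt2 from -0.018 to 0.21. In siPdgfra Ddit3 was 0.15 against NC siRNA #1 alone, and Psat1 was 0.43 (limma adjusted p = 0.00468, against -0.41 and 0.00566 from non-treated alone) and Sesn2 -0.18 against NC siRNA #2 alone. Trib3 was 0.023 in mock against Day0. The cause was not tested.

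Whether replicate numbers pair the samples is not settled by these data. The correlation of same-numbered deviations ran from -0.38 to 0.47 over pairs of groups and was highest for Day0 with non-treated. With the replicate number as a block, 5 members were called for non-treated against Day0, 0 for siSbp2l, 4 for siPdgfra and 3 for siSbp2l against siPdgfra. These were the same counts as without the block, Trib3 included, and the shares over all genes with the block are not given here. The calls of Chac1 in siSbp2l (limma adjusted p = 0.0589) and Sesn2 in siPdgfra (limma adjusted p = 0.0578) at 0.05 were lost with the block, while Trib3 in siSbp2l passed (limma adjusted p = 0.0292). Without both non-treated libraries, an alternative chosen after seeing the data, Phgdh passed in siSbp2l (0.25, limma adjusted p = 0.00263), as did Psat1 (0.11, limma adjusted p = 0.0476) and Trib3 (-0.31, limma adjusted p = 0.0289), and Sesn2 in siPdgfra did not (0.21, limma adjusted p = 0.0662). Trib3 was not tested with the filter of 5 FPKM. With 2 libraries per group, small differences of low genes such as Trib3 are not resolved.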
